A study of Mus musculus with 71 samples.

Results

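RNA-seq was performed on pro-B cells that carried the CRD1 deletion of Pax5 on both alleles, Pax5(DCRD1/DCRD1), and on Pax5(+/+) pro-B cells, to ask which genes depend on CRD1 in the earliest committed B cells. CRD1 is the part of the Pax5 C-terminus that holds the transactivation domain and a short extension of it. The comparison used 5 libraries of the 71 samples of the series, all sequenced to 50 nt: 2 mutant libraries (replicates 1 and 2) and 3 wild-type libraries (replicates 1, 2 and 5). They were chosen by genotype and read length alone, and they were described across the 12867 genes with more than 1 TPM (a transcript level scaled for gene length and sequencing depth) in at least 1 of the 5 libraries, of 25579 genes listed. All 5 libraries came from bone marrow of C57BL/6 mice of 3 to 5 weeks, from which Kit+ pro-B cells without surface CD2, IgM and IgD were sorted without culture. No Cre line, transgene or other allele was listed for either group. The deletion had been made by CRISPR/Cas9 in zygotes of a C57BL/6 × CBA cross and then backcrossed. The labels did not say whether a library came from a single mouse, so the p-values below measure the spread between these libraries.

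Pax5 is the transcription factor that commits lymphoid progenitors to the B cell lineage: it activates genes of B cell identity and signalling and represses genes of other lineages. Its paired domain binds DNA, whereas its C-terminal region recruits coactivators and corepressors. The DCRD1 allele leaves the DNA-binding part in place and removes the transactivation domain. Pax5 lies on the minus strand of chromosome 4 (GRCm38, chr4:44524757-44710487, GENCODE). The sequences of the Cas9 target sites are shown because they fix which part of the gene is missing. They are written 5′ to 3′ with the PAM in capitals, and each had 1 match on the chromosome.
sgRNA-3: agaaccagtcagaagcaacgGGG
sgRNA-4: gacatcattaatcaatcactGGG
The sgRNA-3 site lies on the minus strand in intron 7 (chr4:44570465-44570487), and the sgRNA-4 site lies on the plus strand in intron 9 (chr4:44537066-44537088). The predicted cuts are 33.4 kb apart and enclose exon 8 (chr4:44570002-44570103, 102 bases) and exon 9 (chr4:44537420-44537506, 87 bases). Together these exons hold 189 coding bases, which are 63 of the 391 codons, so the reading frame continues into exon 10. They are 2.36% of the 8004 exonic bases of the transcript, so a gene-level count of Pax5 reports the amount of its mRNA and does not check the deletion.

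Pax5 mRNA was not lost in the mutant cells. Its level was 498, 524 and 489 TPM in the wild-type libraries (replicates 1, 2 and 5, the order used throughout) and 746 and 798 TPM in the mutant libraries (replicates 1 and 2). All mutant values were above all wild-type values, by a factor of 1.53 (limma, log2 fold change 0.62 ± 0.12 (SE), adjusted p 0.0311, Benjamini-Hochberg over all tested genes). This call was lost without wild-type replicate 1 (adjusted p 0.0895) and without either mutant library (0.338 and 0.404).

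The 5 libraries held 25403933 to 30833882 reads assigned to genes with a known length. Markers of pro-B cells were abundant in all of them, and their summed level was 20700 to 24700 TPM in wild-type and 23000 to 24400 TPM in mutant libraries. Wild-type replicate 5 stood apart: the granulocyte and macrophage markers summed to 4020 TPM there, compared with 1060 and 1290 TPM in the other wild-type libraries and 1040 and 1260 TPM in the mutant libraries. Ngp, a neutrophil granule gene, was at 217, 225 and 1256 TPM in the wild-type libraries and 224 and 195 TPM in the mutant libraries. Pairs of wild-type libraries differed more (a chi-square of 49.5 to 71.0 per degree of freedom on recovered reads) than the pair of mutant libraries (10.8), and none was a duplicate of another. Where markers of other cells moved with a result, their values stand beside it, and their part in the result was not tested.

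A small share of the transcriptome differed between Pax5(DCRD1/DCRD1) and Pax5(+/+) pro-B cells, in part by more than 10-fold. A gene was called when its adjusted p was under 0.05, its fold change was above 3, and its mean was above 5 TPM in 1 of the 2 groups. By this rule 63 genes were higher in Pax5(DCRD1/DCRD1) cells, which is 0.501% of the 12572 genes counted after immunoglobulin and histone genes were set aside, and 92 were lower (0.732%). With the adjusted p alone, 213 genes were higher (1.69%) and 322 were lower (2.56%), and 279 of these 535 genes differed by 3-fold or less. The adjusted p alone also decided calls within gene lists and whether the call of a single gene was lost. The shares of 1.69% and 2.56% over all genes are thus the background of each list count below. A count near them says nothing particular about a list. The mutant and wild-type libraries did not overlap for any of the 155 called genes. The thresholds themselves select for such separation, so it adds no evidence of its own. The lower genes had a median log2 fold change of -2.26 and fell from a median of 19.5 TPM in wild-type to 3.08 TPM in mutant cells. The higher genes had a median log2 fold change of 2.05 and rose from a median of 3.93 to 19.9 TPM. Over all tested genes the median was -0.06. A difference of more than 10-fold was seen for 21 of the lower and 9 of the higher genes. In 18 of the lower genes the mean of the mutant libraries was below 1 TPM, whereas 5 of the higher genes had a wild-type mean below 1 TPM. The counts moved when a library was left out. Without wild-type replicate 5, 65 genes were called higher and 128 lower, and 143 of the 155 genes were among them. By adjusted p alone, 1841 genes differed without wild-type replicate 5, 211 without replicate 1 and 300 without replicate 2. Without mutant replicate 1 or 2, when the remaining mutant library was assumed to vary like the wild-type libraries, 13 and 10 genes were called.

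**Figure D1:**
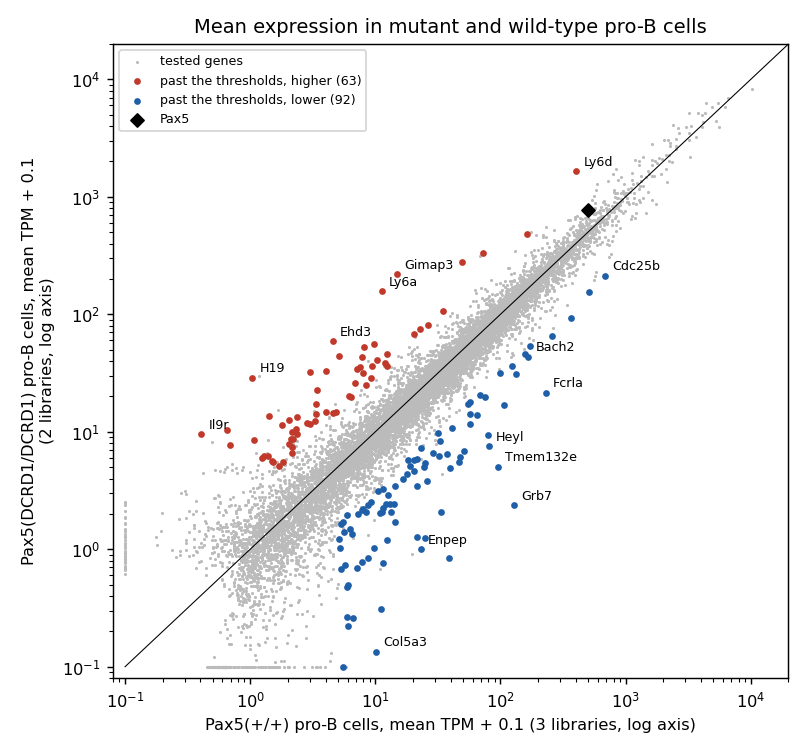
Mean expression of the tested genes in Pax5(+/+) (x axis, 3 libraries) and Pax5(DCRD1/DCRD1) pro-B cells (y axis, 2 libraries), each as TPM + 0.1 on a log axis; the line marks equal levels. The 63 genes called higher are red, the 92 called lower are blue, and Pax5 (diamond) lies slightly above the line at 503 against 772 TPM.

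The 10 largest decreases on the log2 scale were those of Col5a3, 2310008N11Rik, Grb7, Pde9a, Gchfr, Enpep, 4922502D21Rik, Serpina3n, Cacna1e and Tmem132e. Grb7, which encodes an SH2-domain adaptor, was expressed at 112, 150.0 and 123 TPM in wild-type and at 2.28 and 2.24 TPM in mutant libraries (log2 fold change -5.75 ± 0.17 (SE), adjusted p 4.60e-05). Pde9a, the cGMP-specific phosphodiesterase, was at 30.9, 51.3 and 33.1 TPM in wild-type and 0.804 and 0.675 TPM in mutant libraries (log2 fold change -5.49 ± 0.27). Both genes were clearly expressed in each wild-type library and near 1 or 2 TPM in each mutant library. Col5a3, a collagen chain, fell from 12.3, 12.3 and 5.65 TPM to 0.0679 and 0 TPM and had the largest fitted decrease (log2 fold change -6.21 ± 0.48), which depends on the pseudocount of 0.1 TPM because a mutant library was listed at 0. The transcript 2310008N11Rik was at 4.58, 5.44 and 6.197 TPM in wild-type libraries and was listed at 0 in both mutant libraries, so that no fold is given. Enpep, the surface aminopeptidase BP-1 of early B cells, was at 27, 18.8 and 23.1 TPM in wild-type and 0.848 and 0.946 TPM in mutant libraries (log2 fold change -4.52 ± 0.23).

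Cacna1e, a voltage-gated calcium channel subunit, decreased from 21.1, 30.99 and 21.9 TPM to 1.15 and 1.15 TPM (log2 fold change -4.28 ± 0.23). Tmem132e, which encodes a transmembrane protein, went from 81.6, 108 and 95.3 TPM to 5.43 and 4.44 TPM (log2 fold change -4.23 ± 0.18). Gchfr, a regulator of GTP cyclohydrolase, was at 8.9, 15.4 and 8.73 TPM in wild-type and 0.264 and 0.158 TPM in mutant libraries. The groups of each of these genes were separated by far more than the spread within them. Serpina3n, a secreted protease inhibitor, was at 2.396, 8.69 and 6.56 TPM in wild-type and 0.0398 and 0.286 TPM in mutant libraries. 4922502D21Rik was at 6.599, 9.79 and 1.59 TPM in wild-type and 0.05297 and 0.191 TPM in mutant libraries. Both were less even among the wild-type libraries, and their calls were lost without wild-type replicate 2, that of 4922502D21Rik also without replicate 1 and with a pseudocount of 1 TPM. Measured by the amount of transcript lost, the leading genes were Cdc25b, Slc1a5, Bfsp2, Fcrla and Gpam. Cdc25b, a phosphatase that activates cyclin-dependent kinases, fell from 727, 682 and 635 TPM to 199 and 225 TPM (log2 fold change -1.68 ± 0.13). Slc1a5, a transporter of neutral amino acids, fell from 505, 561 and 452 TPM to 149 and 161 TPM (log2 fold change -1.70). Both genes kept over 100 TPM in the mutant cells. Bfsp2, an intermediate filament gene, fell from 331, 341 and 426 TPM to 95.3 and 90.1 TPM. Gpam, the acyltransferase of the first step of triglyceride synthesis, fell from 290.3, 261 and 227 TPM to 70.5 and 61.2 TPM. Fcrla is described with the signalling genes below. Each of these 5 transcripts was still detected in the mutant libraries.

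**Figure D2:**
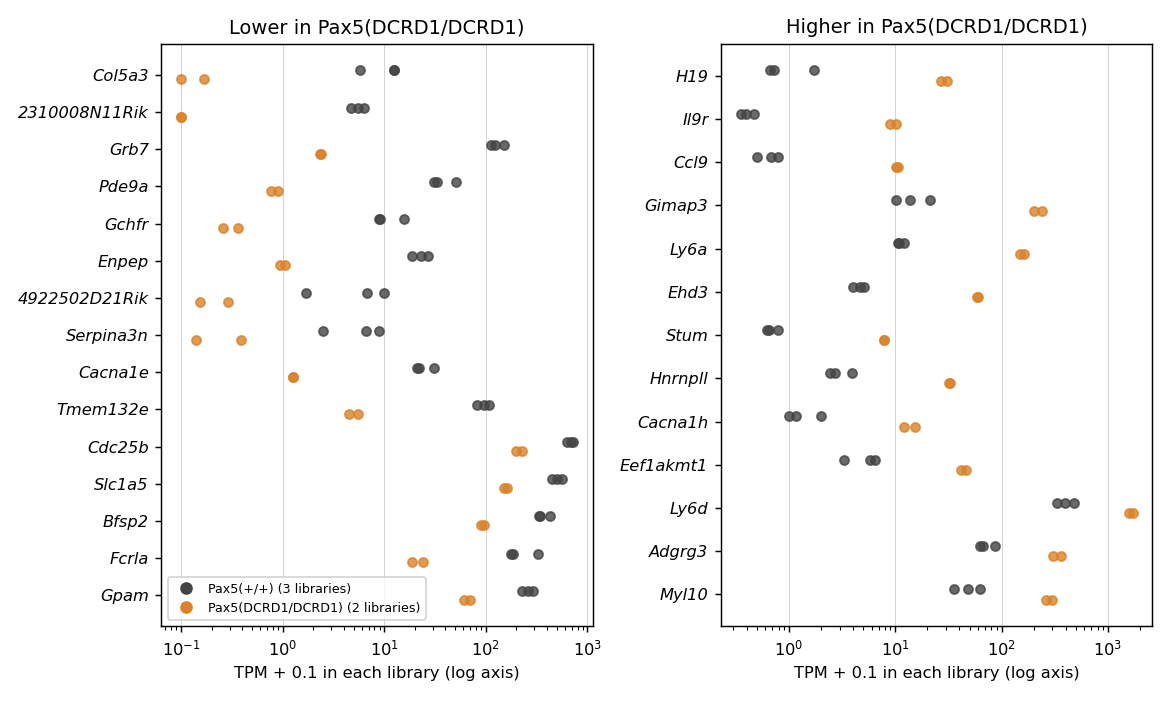
TPM + 0.1 (log axis) of single genes in each library of Pax5(+/+) (grey) and Pax5(DCRD1/DCRD1) pro-B cells (orange); the left panel holds the genes with the largest log2 decrease and the largest loss in TPM, the right panel those with the largest increases. Mutant and wild-type points do not overlap for any gene, which was a condition of the choice for the largest log2 changes. The narrowest gap on this scale is that of Slc1a5 (452 TPM in wild-type replicate 5, 161 TPM in mutant replicate 2).

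The genes with the largest increases came from several functional groups. H19, an imprinted non-coding RNA, was at 0.565, 0.628 and 1.61 TPM in wild-type and at 30.4 and 27.1 TPM in mutant libraries (log2 fold change 4.94 ± 0.43 (SE), adjusted p 0.00215). Il9r, the receptor of interleukin 9, rose from 0.251, 0.373 and 0.291 TPM to 8.897 and 9.96 TPM (log2 fold change 4.57 ± 0.36). Ccl9, a chemokine gene, rose from 0.401, 0.573 and 0.697 TPM to 10.4 and 10.1 TPM (log2 fold change 4.00 ± 0.34). In wild-type libraries these genes were below 1 TPM, except for H19 in replicate 5. Ly6a, which encodes the progenitor antigen Sca-1, was at 11.9, 10.8 and 10.6 TPM in wild-type and at 164 and 149 TPM in mutant libraries (log2 fold change 3.80 ± 0.14). Gimap3, a GTPase gene of the immunity-associated family, rose from 9.997, 21.1 and 13.6 TPM to 202 and 239 TPM (log2 fold change 3.94 ± 0.29). Ehd3, an endocytic recycling factor, rose from 4.59, 3.88 and 4.94 TPM to 59.4 and 58.8 TPM (log2 fold change 3.70 ± 0.18). For the last gene the mutant libraries differed by less than 1 TPM.

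Hnrnpll, an RNA-binding regulator of splicing, was at 3.82, 2.32 and 2.61 TPM in wild-type and 32.5 and 31.8 TPM in mutant libraries. Cacna1h, a T-type calcium channel subunit, was at 1.08, 1.92 and 0.9102 TPM and 11.9 and 15.2 TPM. Eef1akmt1, a methyltransferase of the elongation factor eEF1A, was at 5.67, 3.21 and 6.33 TPM and 46.04 and 41.3 TPM. In all of these the mutant libraries lay close together and far above the wild-type libraries. Stum was at 0.696, 0.555 and 0.518 TPM and 7.68 and 7.66 TPM. These 4 genes had log2 fold changes of 3.45, 3.34, 3.14 and 3.50, in this order. The largest gain in transcript amount was that of Ly6d, a surface antigen that first marks B cell-biased lymphoid progenitors. Its level was 399, 478 and 334 TPM in wild-type and 1717 and 1594 TPM in mutant libraries (log2 fold change 2.05 ± 0.17 (SE), adjusted p 0.00184). The mutant libraries lay far above each wild-type library. Adgrg3, an adhesion G protein-coupled receptor gene, rose from 62.98, 87.1 and 66.3 TPM to 304 and 361 TPM. Myl10, a myosin light chain gene, rose from 48.05, 35.9 and 62.4 TPM to 301 and 262 TPM. Reads of Ly6a, Ly6d, Gimap3 and the Serpina3 genes may also match closely related family members, which makes the exact levels of these genes uncertain.

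Of 35 transcription factors of the B cell lineage, 9 were lower with an adjusted p under 0.05, Pax5 itself was higher and 25 did not pass the test. The list had a median log2 fold change of -0.37. Over all genes, 2.56% were lower and 1.69% higher by the same test. Ikzf3, which encodes Aiolos, fell from 66.96, 51.7 and 51.9 TPM to 16.5 and 11.6 TPM (log2 fold change -2.02 ± 0.21 (SE), adjusted p 0.0034). Bach2, a repressor that acts in B cells, fell from 198, 159 and 145 TPM to 40.3 and 46.6 TPM (log2 fold change -1.93 ± 0.17 (SE), adjusted p 0.00215). Klf2, a factor of lymphocyte quiescence and trafficking, fell from 83.5, 73.4 and 50.04 TPM to 21.5 and 19.6 TPM (log2 fold change -1.71 ± 0.23). The mutant levels of these genes were well below the lowest wild-type library. When the wild-type libraries of the longer reads were added without a term for read length, the calls of Ikzf3, Bach2 and Klf2 were lost. Those wild-type libraries had lower levels of these genes (Ikzf3 15.01 and 27.1, Bach2 68.2 and 81.5 and Klf2 18.98 and 21.99 TPM). Id3, an inhibitor of E proteins, fell from 433, 619 and 613 TPM to 219 and 170.1 TPM. Tcf3, the gene of the E proteins E12 and E47, fell from 1298, 1714 and 1371 TPM to 723 and 729.7 TPM and lost its call with all 5 wild-type libraries too. Irf4 fell by 1.25, Irf8 by 1.09, Mxd3 by 1.28 and Spib by 0.83 on the log2 scale. The call of Irf4 was lost without wild-type replicate 2. Ebf1, the partner of Pax5 in lineage specification, was at 539.5, 594 and 386 TPM and 384 and 385 TPM and did not pass the test (adjusted p 0.352).

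In the list of pre-BCR and BCR signalling, 7 of 47 tested genes were lower and 1 was higher by adjusted p alone (list median -0.17). Over all genes these shares were 2.56% and 1.69%. The strongest decreases were those of Fcrla, an Fc receptor-like protein of B cells (324, 178 and 185 TPM in wild-type, 24.1 and 18.7 TPM in mutant libraries, log2 fold change -3.37), and of the inhibitory receptor gene Fcgr2b (38.4, 30.1 and 29.3 TPM, 9.18 and 7.47 TPM, log2 fold change -1.95). Cd38, an ectoenzyme gene, was at 29.1, 20.2 and 11.6 TPM and 6.42 and 4.82 TPM, and its adjusted p of 0.0478 was lost without either wild-type replicate 1 or 2. Pik3ap1, an adaptor of PI3K signalling, fell from 558, 579 and 592 TPM to 225 and 234 TPM (log2 fold change -1.33 ± 0.11). The signalling chain gene Cd79b did not pass the test (2052, 1969.5 and 1861 TPM and 2167 and 2015 TPM, adjusted p 0.718), and the groups overlapped there. The surrogate light chain gene Igll1 was at 4067, 4689 and 4196 TPM and 5415 and 4958 TPM (adjusted p 0.35). Grap2, an adaptor gene, was the member that rose (12.8, 13.9 and 9.68 TPM to 22.02 and 24.2 TPM, adjusted p 0.0493 in limma), a call that was also lost with a pseudocount of 0.01 or 1 TPM.

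Of the 12 genes of V(D)J recombination, Polm alone passed the test, which 2.56% of all genes passed as lower and 1.69% as higher. It encodes DNA polymerase mu, which fills gaps during end joining, and fell from 41.5, 36.8 and 21.6 TPM to 2.64 and 1.29 TPM (log2 fold change -4.04 ± 0.37 (SE), adjusted p 0.0024). Rag1 was at 822, 518 and 384 TPM and 512 and 549 TPM (adjusted p 0.952). Dntt, the terminal transferase, was at 2706, 2743 and 2487 TPM and 3693 and 3343 TPM (adjusted p 0.144). The groups overlapped for Rag1 and not for Dntt. The count tests on recovered reads called more members (edgeR 1 higher and 2 lower, DESeq2 3 higher and 4 lower). Of 11 genes of MHC class II presentation, 3 were lower and none was higher. Ciita, the transactivator of this pathway, was at 5.79, 3.45 and 3.197 TPM and 1.01 and 0.763 TPM. The class II chain gene H2-Aa was at 49.2, 35.6 and 24.2 TPM and 13.9 and 11.1 TPM, and H2-Ab1 was at 231, 244 and 234 TPM and 154 and 158 TPM. No member of this list passed the test when wild-type replicate 1 or replicate 2 was left out.

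**Figure D3:**
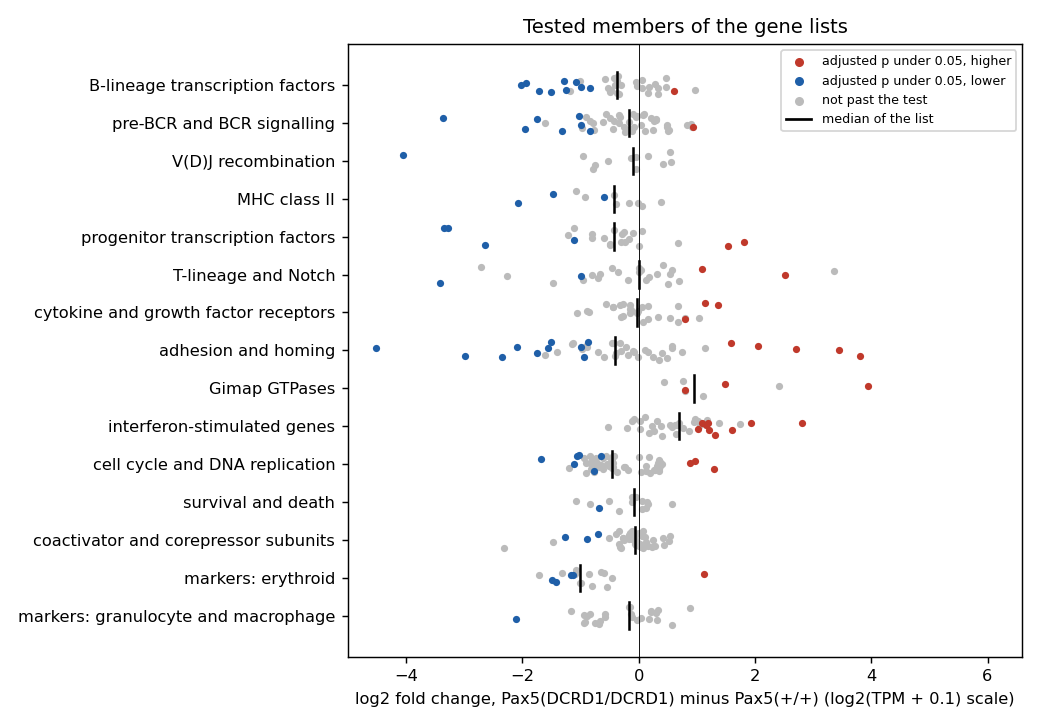
log2 fold change (x axis, Pax5(DCRD1/DCRD1) minus Pax5(+/+), log2(TPM + 0.1) scale) of each tested member of 15 gene lists; red and blue points passed an adjusted p of 0.05, grey points did not, and the black bar is the list median. The Gimap GTPases (median 0.95) and interferon-stimulated genes (0.69) lie to the right and the erythroid markers (-1.01) to the left of the median of all tested genes (-0.06).

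The list of progenitor transcription factors had 2 higher and 4 lower members of 23 tested (1.69% and 2.56% of all genes). Genes of the Hoxa cluster, which are known from early progenitors, fell. Hoxa5 was at 5.598, 10.01 and 5.59 TPM in wild-type and 0.486 and 0.689 TPM in mutant libraries (log2 fold change -3.34 ± 0.36). Hoxa9 was at 6.48, 10.98 and 5.69 TPM and 0.591 and 0.7705 TPM (log2 fold change -3.27 ± 0.36), and Hoxa7 was at 16.3, 28.9 and 18.6 TPM and 4.21 and 2.45 TPM (log2 fold change -2.64 ± 0.32). For each of them wild-type replicate 2 was the highest library. Meis1, which encodes a cofactor of Hox proteins, fell from 19.2, 23.1 and 14.2 TPM to 8.61 and 8.36 TPM (adjusted p 0.0433). In contrast, Epas1, the gene of HIF2α, rose from 2.46, 2.26 and 1.51 TPM to 7.19 and 7.51 TPM. The calls of Meis1 and Epas1 were lost without wild-type replicate 1 or 2. Tcf7l1, a Tcf/Lef family gene, rose from 13.3, 18.2 and 13.9 TPM to 40.8 and 46.7 TPM.

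The T-lineage and Notch list had 2 higher and 2 lower members of 26 tested (1.69% and 2.56% of all genes), with a median of 0.00. Tcf7, the gene of the T cell factor TCF1, rose from 39.3, 56.6 and 38.4 TPM to 87.9 and 100.2 TPM (log2 fold change 1.09 ± 0.20). Dtx4, a Deltex ubiquitin ligase gene, rose from 1.896, 1.88 and 3.06 TPM to 14.03 and 12.3 TPM (log2 fold change 2.51 ± 0.29). Heyl, a member of the Hes and Hey repressor family, fell from 82.2, 83.4 and 75.6 TPM to 7.504 and 7.42 TPM (log2 fold change -3.41 ± 0.14 (SE), adjusted p 0.000132). Ubash3a, a suppressor of T cell receptor signalling, fell from 66.9, 73.9 and 83.6 TPM to 37.3 and 37.2 TPM. Of 29 tested genes on the list of receptors of cytokines and growth factors, limma called 3 higher and none lower, and DESeq2 called 7 higher and 1 lower. Flt3, the receptor of early lymphoid progenitors, was at 11.7, 11.3 and 14.7 TPM in wild-type and 27.8 and 27.6 TPM in mutant libraries (log2 fold change 1.15 ± 0.18). Ebi3, a cytokine subunit gene, was at 10.4, 17.5 and 13.8 TPM and 33.9 and 36.3 TPM. Ifngr1, a chain of the interferon gamma receptor, was at 93.7, 72.3 and 91.01 TPM and 149 and 146 TPM. The calls of Flt3 and Ifngr1 were lost when wild-type replicate 1 or 2 was left out, and those of Ebi3 and Tcf7 when replicate 1 was left out. Il7r, the receptor that pro-B cells need for growth, was at 247, 242 and 145 TPM and 307 and 349.8 TPM (adjusted p 0.196).

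Of 46 genes of adhesion and homing, 5 were higher and 10 lower (1.69% and 2.56% of all genes). Besides Ly6a and Ly6d, the semaphorin genes Sema3g (7.06, 8.397 and 8.398 TPM to 50.9 and 54.1 TPM, log2 fold change 2.71) and Sema6d (0.311, 0.452 and 0.194 TPM to 3.72 and 4.96 TPM) rose. Among the lower members were Enpep, the guidance genes Ntn1 (5.37, 5.41 and 6.196 TPM to 0.665 and 0.5896 TPM) and Slit1 (28.5, 41.8 and 26.9 TPM to 5.81 and 6.46 TPM), and the integrin gene Itgb4 (5.403, 6.49 and 6.77 TPM to 1.24 and 1.55 TPM). The Gimap genes, which encode a family of small GTPases clustered on chromosome 6, were all higher in sign, and 3 of 8 passed the test. Their median was 0.95, beside -0.06 over all tested genes. Gimap7 rose from 18.7, 18.9 and 18.02 TPM to 52.03 and 52.5 TPM (log2 fold change 1.49 ± 0.14 (SE), adjusted p 0.00229) and Gimap5 from 28.8, 32.99 and 32.7 TPM to 54.9 and 54.7 TPM (adjusted p 0.0237). After median-of-ratios scaling of the TPM values 5 of the 8 passed, and with edgeR and DESeq2 on recovered reads 6 and 7 passed. Without wild-type replicate 5, 6 passed, and without replicate 1 or 2, 2 passed.

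Interferon-stimulated genes were higher in 33 of 37 tested members by sign, with a list median of 0.69 beside -0.06 over all tested genes. Of the 37, 9 passed the test as higher, as did 1.69% of all genes. Tgtp1, an interferon-inducible GTPase gene, was at 0.859, 0.716 and 0.284 TPM in wild-type and 4.4 and 4.85 TPM in mutant libraries (log2 fold change 2.82 ± 0.48). Ifitm1 was at 6.48, 6.1 and 7.86 TPM and 25.7 and 26.4 TPM (log2 fold change 1.93 ± 0.18). Oas2, an RNA sensor gene, was at 4.96, 5.38 and 3.94 TPM and 15.9 and 13.2 TPM. Cgas, a DNA sensor gene, was at 3.23, 2.99 and 2.56 TPM and 7.42 and 7.39 TPM. The groups did not overlap for any of these 4 genes, which were picked by the adjusted p, so this adds no evidence. Without wild-type replicate 1, 3 members of the list passed, and without replicate 5, 17 did. With edgeR and DESeq2 on recovered reads, 17 and 21 passed. The calls of Tgtp1 and Cgas were lost without wild-type replicate 1 or 2, that of Oas2 without replicate 1. Cell cycle genes were considered by role. All 25 tested genes of mitosis were lower in sign with a median of -0.73, beside -0.06 over all tested genes. With limma only 2 passed the test, Cdc25b and Ccna2 (276, 203 and 217 TPM to 92.02 and 123 TPM). Ccna2 did not pass without wild-type replicate 1. Of 32 genes of the G1/S transition and replication, 4 were lower, among them E2f2 (395, 336 and 393 TPM to 182 and 184 TPM) and the inhibitor gene Cdkn2d (304, 233 and 312 TPM to 120.2 and 149.7 TPM), and 3 were higher, namely Ccnd1 (6.103, 4.27 and 5.47 TPM to 11.7 and 14.2 TPM), Ccnd2 (97.2, 101 and 100.2 TPM to 179 and 189 TPM) and Cdk6 (103, 80.7 and 93.2 TPM to 171 and 190.5 TPM). The calls of Ccnd1 and Cdkn2d were lost without wild-type replicate 1, that of Ccnd1 also without replicate 2. For the whole cell cycle list of 57 genes, limma called 6 lower, edgeR 9 and DESeq2 19, each with 3 higher.

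Of 53 tested subunits of chromatin remodelling, histone modification and corepressor complexes, 3 were lower and none was higher with limma (2.56% and 1.69% of all genes), with a list median of -0.07, while DESeq2 called 5 lower and 2 higher. The 3 genes with an adjusted p under 0.05 in limma all changed by less than 3-fold. They were Smarca4, the ATPase of the BAF complex (2014, 2343 and 2083 TPM to 1339.9 and 1315 TPM), and the Groucho-related genes Aes (703, 867 and 759.8 TPM to 387 and 453 TPM) and Tle6 (10.3, 13.7 and 9.72 TPM to 3.81 and 5.47 TPM). All 3 lost their call without wild-type replicate 1, and Smarca4 also lost it with all 5 wild-type libraries. Of 37 genes of glucose uptake and metabolism, limma called 1 higher and none lower, edgeR 1 higher and 2 lower, and DESeq2 3 higher and 2 lower. The gene called by limma was Slc2a6, which encodes a sugar transporter (2.22, 2.74 and 1.73 TPM to 11.4 and 9.64 TPM, log2 fold change 2.21). Of 14 tested genes of survival and death, Bcl2l1, the gene of the survival factor Bcl-xL, was lower with limma (143, 129 and 119.6 TPM to 76.6 and 86.8 TPM, adjusted p 0.0408), and its call was lost without wild-type replicate 1 or 2. Of 21 tested immediate-early genes, 2 were higher (Klf4, 7.81, 6.42 and 6.397 TPM to 18.3 and 16.3 TPM, and Dusp5, 36.1, 37.3 and 37 TPM to 66.7 and 74.3 TPM) and 2 were lower (Gadd45b, 46.9, 46.2 and 39.5 TPM to 23.4 and 21.7 TPM, and Jund, 329, 383 and 266 TPM to 176 and 176 TPM). The calls of Gadd45b and Jund were lost without wild-type replicate 1 or 2.

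Several markers of other cells in the bone marrow also differed between the groups. Over all genes, 1.69% were higher and 2.56% lower by the same test. Of 17 tested erythroid markers 16 were lower in sign, with a list median of -1.01 beside -0.06 over all tested genes. Lower with a passed test were 4 markers, among them Slc4a1 (118, 73.01 and 97.8 TPM to 38.6 and 46.3 TPM), Ermap and Tspo2, while Car2 rose (224, 185 and 243 TPM to 480.3 and 459 TPM). The summed level of this list was 1440 to 2150 TPM in wild-type and 1590 to 1610 TPM in mutant libraries, and no erythroid marker was called lower without wild-type replicate 1. The 10 tested dendritic cell markers included 1 higher gene, Flt3, and 3 lower genes, and summed to 269 to 312 TPM in wild-type and 270 to 304 TPM in mutant libraries. Among the lower genes, Siglech (13.9, 4.01 and 1.81 TPM in wild-type, 0.2004 and 0.1202 TPM in mutant libraries) and Klk1 (5.39, 1.6 and 0.7297 TPM in wild-type, listed at 0 in both mutant libraries) were highest in wild-type replicate 1 and lost their call without it or without replicate 2, whereas Cox6a2 (15.3, 12.4 and 11.8 TPM, 2.01 and 1.96 TPM) was even within each group. Bst2, another marker of plasmacytoid dendritic cells, was at 139, 116 and 148 TPM and 195 and 159 TPM. Prg3, an eosinophil granule gene, was called lower (11.98, 5.05 and 7.79 TPM, 2.45 and 1.47 TPM), while the other defining eosinophil gene Epx was at 6.18, 6.52 and 4.305 TPM and 5.89 and 5.81 TPM. The call of Prg3 was lost without wild-type replicate 1. Of 6 tested T, NK and innate lymphoid markers, Nkg7 was called higher (7.73, 7.54 and 12.8 TPM, 37.6 and 34.6 TPM) and Prf1, the perforin gene, was called lower (4.78, 7.14 and 4.52 TPM, 1.41 and 1.21 TPM). This list summed to 28.9 to 41.5 TPM in wild-type and 77.8 to 80.8 TPM in mutant libraries. The T cell genes Cd3e (0, 0.13 and 0.069 TPM, 0.11 and 0 TPM) and Cd8a (0.14, 0.12 and 0.032 TPM, 0.027 and 0.064 TPM) were near 0 in both groups. The calls of Nkg7 and Prf1 were lost without wild-type replicate 1, that of Prf1 also without replicate 2. Cd36 was the sole called member of the granulocyte and macrophage list (14.4, 13.3 and 9.51 TPM, 3.15 and 2.43 TPM), whose neutrophil genes set wild-type replicate 5 apart. In bulk RNA, fewer cells of a type and less RNA per cell cannot be told apart. Of 8 tested plasma cell markers, Derl3 was higher and Irf4 lower, and 0 of 9 tested markers of stroma and endothelium passed limma's test. The call of Derl3 was lost without wild-type replicate 1 or 2, that of Irf4 without replicate 2. Of 18 tested markers of later B cell stages, 1 was higher and 4 were lower, among them Cd2, which the sort excluded at the surface (5.72, 3.099 and 4.63 TPM to 0.725 and 0.435 TPM), and Cd22 (64.4, 70.2 and 59.1 TPM to 31.4 and 31.9 TPM). The call of Cd2 was lost without wild-type replicate 1. None of the 9 tested genes of RNA quality passed limma's test, while edgeR and DESeq2 each called 1 lower, and without wild-type replicate 5 limma called 1 higher and 1 lower.

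The study grouped target genes of Pax5 by their need for the C-terminal domains, using libraries of this series, so that the direction of these lists is not independent evidence. Of the genes that it described as activated through CRD1, all 9 were lower in the homozygous cells (median -2.29), and of those repressed through CRD1, 7 of 8 were higher (median 1.97), with Gimap4 at 75.99, 102 and 25.9 TPM and 349 and 279.6 TPM and an adjusted p of 0.05, just outside the threshold. The genes that need both CRD1 and the second C-terminal domain, CRD2, also changed with CRD1 alone missing: all 5 activated genes were lower (median -4.23, led by Grb7 and Enpep) and all 4 repressed genes were higher (median 2.8, led by Hnrnpll and Eef1akmt1). Cldn4, a tight junction gene of this group, fell from 16.8, 29.7 and 17.4 TPM to 1.15 and 1.21 TPM, and Ell3, an elongation factor gene, rose from 6.58, 8.93 and 7.695 TPM to 42.3 and 43.8 TPM. Changes were smaller for the genes described as affected by loss of both domains, where 4 of 8 activated genes were lower (median -0.76) and 4 of 9 repressed genes were higher (median 1.04). Of the genes described as independent of both domains, 0 of 8 activated and 0 of 7 tested repressed genes passed limma's test, and DESeq2 called 2 and 3 of them lower. Vpreb3, which was at 4938, 5151 and 5677 TPM and 4509.9 and 4329 TPM, is an example of the former.

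Further called genes, named after their values were seen, are of interest for what they encode. Among the lower genes were the receptor gene Lgr5 (57.2, 54.9 and 28.8 TPM to 5.85 and 6.13 TPM), the scaffold gene Axin2 (5.95, 6.05 and 5.39 TPM to 1.68 and 2.01 TPM) and the ligand gene Wnt9a (5.22, 6.64 and 4.27 TPM to 1.65 and 1.59 TPM). Dkk3, a Dickkopf family gene on a list of the study, fell as well (8.804, 10.7 and 6.48 TPM to 0.6701 and 0.804 TPM). Others were the iron transporter gene Slc11a2 (44.6, 39.9 and 33.2 TPM to 4.49 and 5.07 TPM), the transaminase gene Bcat1 (30.4, 28.7 and 36.2 TPM to 9.51 and 9.74 TPM) and the deacetylase gene Hdac11 (48.5, 57.9 and 33.8 TPM to 4.62 and 6.14 TPM). Higher genes included the ligand genes Tnfsf11 (RANKL, 2.35, 1.93 and 1.79 TPM to 8.24 and 8.77 TPM) and Icosl (0.877, 1.67 and 1.34 TPM to 6.82 and 5.54 TPM), the metalloprotease gene Mmp14 (23.9, 22.7 and 21.8 TPM to 76.2 and 74.8 TPM) and the sphingosine-1-phosphate transporter gene Spns2 (5.97, 9.18 and 6.01 TPM to 33.6 and 34.7 TPM). For all of these the groups were apart, which adds no evidence because the genes were taken from the called ones. Cdkn1c, which encodes a cyclin-dependent kinase inhibitor and is imprinted like H19, fell from 8.25, 9.57 and 8.07 TPM to 2.26 and 2.31 TPM.

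Some of the called genes lie close to each other, and several of the genes named here were chosen for their position. Positions in GRCm38 were known for 154 of the 155 genes, and 29 of them formed 12 runs in which neighbours were at most 250 kb apart. In 10 of the 12 runs all genes changed in 1 direction. However, 8 of the 12 runs held only 2 genes, and a pair of unrelated genes often shares a direction. How many runs the same number of unrelated genes would form was not tested. The largest was the Hoxa cluster (chr6:52201754-52227370), with Hoxa5, Hoxa7, Hoxa9 and the non-coding RNA gene Mira all lower, whose overlapping transcripts can share reads. Grb7 and Ikzf3 (chr11:98446834-98546031), Fcrla and Fcgr2b (chr1:170917594-170976071), and Tmprss3, Rsph1 and Pde9a (chr17:31179263-31476309) were lower together. Lynx1, Ly6d and Ly6a (chr15:74747856-74998031) were higher together. At the Serpina3 locus (chr12:104214544-104414334), Serpina3f (13.4, 11.3 and 6.02 TPM to 31.2 and 50.9 TPM) and Serpina3g (3.41, 5.01 and 3.38 TPM to 27.4 and 38.04 TPM) rose while Serpina3n fell. Around Pax5 itself, 0 of 110 tested genes within 10 Mb were called in limma with all thresholds, and 2 had an adjusted p under 0.05 (1.69% higher and 2.56% lower over all genes). These were 5730488B01Rik, which overlaps Pax5 and was higher (log2 fold change 0.84), and Aldh1b1, which was lower (log2 fold change -0.66). On all of chromosome 4, 7 of 757 tested genes were called, beside 0.501% higher and 0.732% lower over all genes.

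The same allele was also sequenced over a null allele, in hemizygous Pax5(DCRD1/-) pro-B cells (2 libraries), with 2 other Pax5(+/+) libraries, all 4 of 100 nt. None of these 4 libraries is part of the homozygous comparison. Their p-values came from a fit to 9 libraries, in which the 50 nt libraries also set the variance estimate. The hemizygous calls are thus not fully independent of the homozygous set. In hemizygous cells 111 genes were higher (0.868%) and 212 lower (1.66%) than in wild-type cells. Of the 155 genes called in homozygous cells, 122 were called in the same direction in hemizygous cells, 50 of the 63 higher and 72 of the 92 lower genes. They made up 78.7% of the homozygous and 37.8% of the hemizygous list. All 92 lower genes and 62 of the 63 higher genes had the same sign in hemizygous cells, the exception being Nkg7 (15.2 and 21.1 TPM in wild-type and 14.1 and 11.98 TPM in hemizygous libraries). Gene by gene, the fitted change was larger in hemizygous than in homozygous cells for 109 of the 155 genes. Grb7 was at 172 and 135 TPM in the wild-type and 0.586 and 0.367 TPM in the hemizygous libraries, Heyl at 105 and 73.7 TPM and 0.587 and 0.792 TPM, and Enpep at 25.4 and 29.7 TPM and 0.0703 and 0 TPM. All of them were thus lower in hemizygous than in homozygous libraries, but the sets differ in read length and in their wild-type libraries. Markers of other cells moved with the hemizygous comparison. All 26 tested granulocyte and macrophage markers were lower in hemizygous than in wild-type libraries in sign, 15 of them with an adjusted p under 0.05 (6.53% of all genes), and the list summed to 1200 and 7840 TPM in the wild-type and 316 and 561 TPM in the hemizygous libraries. Of 12867 genes tested in both sets, 6913 were higher in hemizygous cells in sign. Of the 17 erythroid markers 12 were lower by this test. The part of these cells in the hemizygous counts was not tested.

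Gene lists were compared in the same way. All 8 Gimap genes were higher in hemizygous cells (adjusted p under 0.05, as for 4.39% of all genes, median log2 fold change 1.75), and of the B-lineage transcription factors 3 were higher and 11 lower. Of the 37 interferon-stimulated genes, 9 were higher and none was lower in homozygous cells, and 3 were higher and 3 lower in hemizygous cells, with a median of -0.08. The difference between the genotypes was not tested for the list. Ifitm3, an antiviral membrane protein gene, was at 119.5, 98.2 and 127 TPM in wild-type and 269.7 and 222 TPM in homozygous libraries, and at 183 and 217 TPM in wild-type and 147 and 175 TPM in hemizygous libraries. Its difference between the comparisons did not pass the test (adjusted p 0.137). The difference between the homozygous and the hemizygous effect was tested as an interaction across 9 libraries. With limma, 3 genes of 12788 (0.0235%) passed all thresholds, Heyl, Plxdc1 and C1qb, while 780 had an unadjusted p under 0.05. The count tests on recovered reads called 30 (edgeR) and 76 (DESeq2). Plxdc1, a transmembrane receptor gene, fell from 135, 179.8 and 152 TPM to 42.7 and 49.4 TPM in homozygous and from 189.6 and 134 TPM to 6.31 and 8.75 TPM in hemizygous cells. The complement gene C1qb did not pass the test in homozygous cells (7.33, 9.11 and 6.87 TPM and 9.84 and 9.104 TPM). It was at 16.99 and 15.9 TPM in the wild-type libraries of 100 nt and at 3.08 and 3.85 TPM in the hemizygous libraries. Some genes called in homozygous cells did not pass in hemizygous cells, such as Il9r (0.209 and 0.318 TPM and 0.647 and 1.92 TPM), Oas2 (4.09 and 6.22 TPM and 5.25 and 9.03 TPM) and S100a6 (34.6 and 88.03 TPM and 71.5 and 76.7 TPM). Their difference between the 2 effects did not pass the interaction test (adjusted p 0.348, 0.705 and 0.692). Hence a difference between homozygous and hemizygous cells was not shown for them.

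**Figure D4:**
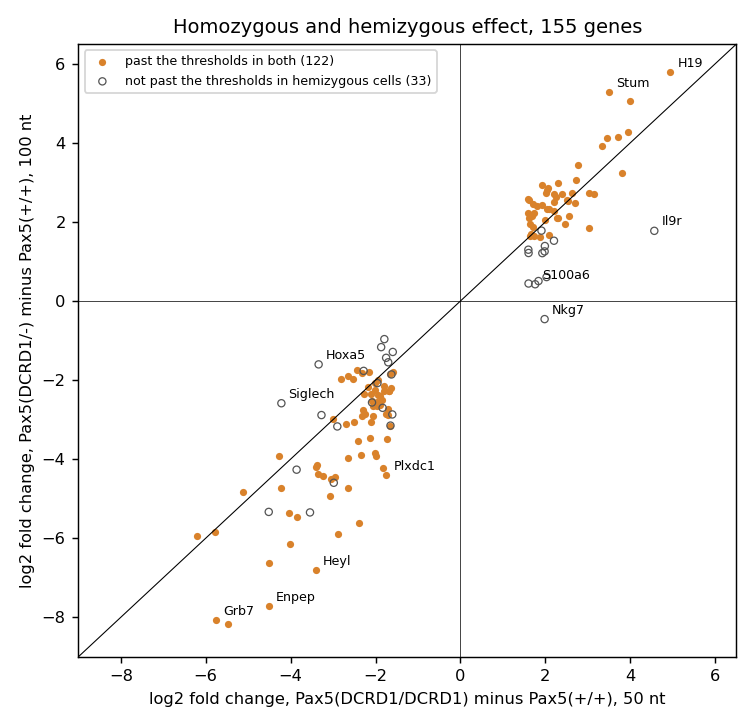
log2 fold change of the 155 genes called in homozygous cells (x axis, Pax5(DCRD1/DCRD1) minus Pax5(+/+), 50 nt) beside that in hemizygous cells (y axis, Pax5(DCRD1/-) minus Pax5(+/+), 100 nt); the line marks equal changes. Filled points (122) were called in both, open points (33) were not past the thresholds in hemizygous cells, and Nkg7 is the only gene of opposite sign.

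Pax5-deficient progenitors, Vav-Cre Pax5(fl/fl), served as the state without functional Pax5. Vav-Cre is active in all blood cells, and these progenitors were sorted through another gate (lineage-negative, Ly6D+, Kit-high, B220+), which cannot be told apart from the genotype. The 2 progenitor libraries of 50 nt held 19263091 and 10018678 reads. Homozygous mutant cells differed from them in 239 higher (1.82%) and 377 lower genes (2.88%). The mutant libraries are shared between this comparison and the one with wild-type cells, so the values are given side by side. Of the 155 genes, 109 did not pass the thresholds against the progenitors. Grb7 was at 1.25 and 1.199 TPM in progenitors, Cacna1e at 0.4804 and 2.02 TPM and Fcrla at 7.89 and 16.9 TPM, compared with 2.28 and 2.24, 1.15 and 1.15, and 24.1 and 18.7 TPM in the mutant libraries. Among the 92 lower genes, 17 were still higher in mutant cells than in progenitors. Of these, Heyl was listed at 0 in both progenitor libraries, Fxyd6 was at 0.145 and 0.291 TPM (110.4, 98.2 and 108 TPM in wild-type and 14.9 and 19.1 TPM in mutant libraries) and Sertad4 at 0.343 and 0 TPM (44.5, 47.6 and 29.4 TPM and 12.1 and 9.13 TPM).

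A further 8 of the 92 lower genes were also lower in mutant cells than in progenitors. These included Siglech (70.6 and 195 TPM in progenitors), Cox6a2 (160.5 and 252 TPM) and the Hoxa genes, with Hoxa5 at 10.7 and 9.74 TPM, Hoxa7 at 32.9 and 25.97 TPM and Hoxa9 at 9.69 and 6.55 TPM in progenitors. Hence the levels of the Hoxa genes were lower in homozygous cells than in either wild-type cells or the differently sorted progenitors. In hemizygous cells these genes also fell (Hoxa7 13.7 and 12.2 TPM and 3.11 and 3.68 TPM, adjusted p 0.00669). Among the 63 higher genes, 11 were lower in mutant cells than in progenitors, such as Gpr25 (0.967, 0.635 and 1.32 TPM in wild-type, 9.56 and 7.31 TPM in mutant libraries, 253 and 278 TPM in progenitors), Stum (244 and 274 TPM) and Ifitm1 (654 and 422 TPM). A further 10 were higher in mutant cells than in progenitors, led by Il9r (0.168 and 0.169 TPM in progenitors), Prss12 (3.14, 3.86 and 2.87 TPM, 21.8 and 23.5 TPM and 1.59 and 1.603 TPM), H19 (4.82 and 2.17 TPM) and Gimap3 (72.1 and 61.5 TPM). Flt3, which changed by less than 3-fold in mutant cells, was at 499.5 and 428 TPM in progenitors. Pax5 mRNA was at 1609 and 1697 TPM in progenitors, above the mutant level.

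**Figure D5:**
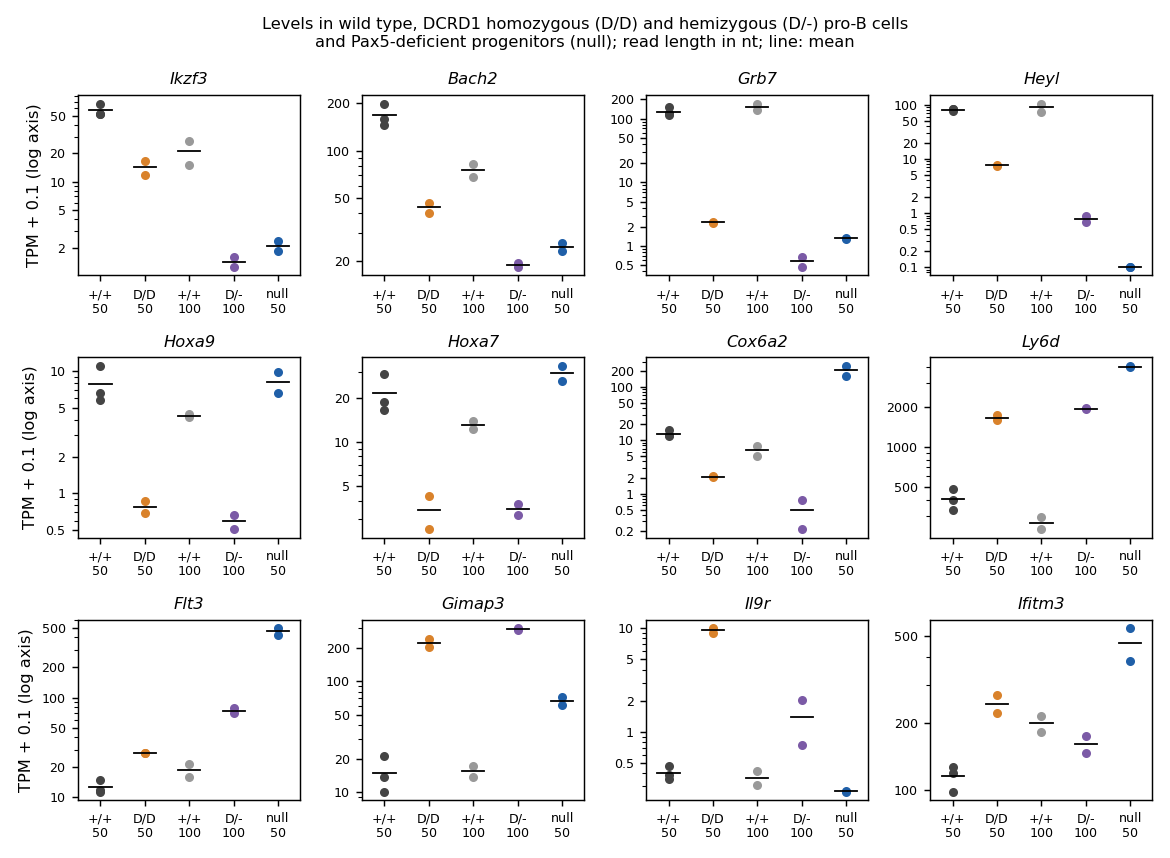
TPM + 0.1 (log axis, own scale per panel) of 12 genes in each library of Pax5(+/+), homozygous (D/D) and hemizygous (D/-) DCRD1 pro-B cells and Pax5-deficient progenitors (null), with the read length in nt; lines are means. Hoxa7, Hoxa9 and Cox6a2 are lowest in the mutant groups, Grb7 is low in every group without full-length Pax5, and Il9r is highest in homozygous cells.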

How the data were processed

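The authors trimmed all reads, sequenced to 50 nt or (hemizygous set) 100 nt, to 50 bases, aligned them to GRCm38 (STAR 2.4.2a, per the submitters' notes), counted them per gene and deposited 1 table of TPM values per library. Values of 25579 genes were read from 23 libraries, and 23 deposited tables were not used. Implied lengths of 16745 genes came from the raw read counts that the authors deposited in 2 tables, 1 of which names another library (wild-type replicate 3) than its own sample and served for lengths alone. With them the deposited TPM values gave whole read counts (within 0.05 reads) for 100% of values. The analysis used log2(TPM + 0.1) of genes above 1 TPM in at least 1 library of the comparison, with limma 3.58.1 (trended empirical Bayes) in R 4.3.3 and Benjamini-Hochberg adjustment. A gene was called at an adjusted p under 0.05, more than 3-fold and a mean above 5 TPM in a group, with immunoglobulin and histone genes left out of counts. The same model was used for the hemizygous comparison, the interaction and the comparison with Pax5-deficient progenitors. The hemizygous comparison and the interaction were fitted to 9 libraries together. The fit with the progenitors also included the wild-type libraries of 50 nt. Alternatives were other pseudocounts and filters, median-of-ratios scaling, other variance settings, edgeR 4.0.16 and DESeq2 1.42.0 on recovered counts, a replicate block, other sets of libraries and leaving out each library. The code was tested on simulated data.

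The rule for named genes took Pax5 and the 10 highest and 10 lowest log2 fold changes among called genes whose groups did not overlap. It also took the 5 largest gains and losses in TPM among called genes and up to 6 genes of each of the other tests. From each list it took up to 4 members in each direction with an adjusted p under 0.05. Axin2, Bcat1, Bst2, Cdkn1c, Dntt, Ebf1, Epx, Gimap4, Gpr25, Hdac11, Icosl, Igll1, Il7r, Irf8, Lgr5, Lynx1, Mira, Mmp14, Mxd3, Ngp, Prss12, Rag1, Rsph1, S100a6, Serpina3f, Serpina3g, Slc11a2, Spib, Spns2, Tmprss3, Tnfsf11, Wnt9a, Cd79b, Cd3e and Cd8a were named after their values were seen. The genotype groups and gene lists were chosen with earlier results of these data known. Coordinates are those of GRCm38. Positions of called genes and of the genes around Pax5 came from RefSeq, and the Pax5 transcript with its exons from GENCODE. Guide sequences were those listed by the study, matched to chromosome 4. That of sgRNA-4 is printed as the reverse complement of its listed form, the strand on which the PAM lies. The strand setting of the counting is not given in the sources used here, so overlapping and antisense genes are uncertain. Some genes that met the rule are not reported here.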

Additional observations from a re-analysis of the deposited data

Results flagged for a closer look

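The difference between the homozygous and the hemizygous effect passed the test (limma, all thresholds) for Heyl, Plxdc1 and C1qb. For Heyl, a gene of the Hes and Hey repressor family, the difference was 3.41 ± 0.28 (SE) on the log2 scale (adjusted p 0.00946), with a homozygous effect of -3.41 and a hemizygous effect of -6.82. Heyl was at 105 and 73.7 TPM in the wild-type libraries of 100 nt, at 0.587 and 0.792 TPM in the hemizygous libraries and at 7.50 and 7.42 TPM in the homozygous libraries. For Plxdc1 the difference was 2.66 ± 0.30 (adjusted p 0.0465), with effects of -1.75 and -4.41. Plxdc1 was at 6.31 and 8.75 TPM in hemizygous and at 42.7 and 49.4 TPM in homozygous libraries. For C1qb, a complement gene of macrophages, the difference was 2.51 ± 0.28 (adjusted p 0.0465), with effects of 0.29 and -2.22. C1qb was at 17.0 and 15.9 TPM in the wild-type libraries of 100 nt and at 7.33, 9.11 and 6.87 TPM in those of 50 nt, so the wild-type levels differed as well. All 3 calls were lost without wild-type replicate 1 or 2 of the 50 nt set or either homozygous library, when 0 genes passed. The calls of C1qb and Plxdc1 were also lost without wild-type replicate 5, without a filter and without a variance trend. The call of C1qb was lost without each of the 4 libraries of the 100 nt set. That of Plxdc1 was lost without wild-type replicate 3 of that set and without either hemizygous library. Each mutant genotype was compared with wild type of its own read length, and other differences between the 2 sets of libraries were not tested.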

How the results depend on the processing

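With a 2-fold limit 302 genes were called (130 higher, 172 lower). A pair of libraries sharing a replicate number did not deviate together (r = 0.08 and 0.01), so the numbers were not taken as pairs. With the replicate block 38 genes were called higher and 91 lower, and by adjusted p alone 220 (73 and 147). Genes with an adjusted p under 0.05 numbered 950 with edgeR (426 and 524), 1336 with DESeq2 (584 and 752) and 1058 when all C-terminal groups were fitted together (513 and 545). When 1 library was left out, called genes ranged from 10 to 193 (higher 2 to 65, lower 8 to 128) and genes by adjusted p from 10 to 1841 (2 to 519 and 8 to 1322). The lowest values came without a mutant library and the highest without wild-type replicate 5. Without wild-type replicate 1 or 2, 211 and 300 genes had an adjusted p under 0.05. The interaction called 1 gene without a filter, 5 after median-of-ratios scaling, 1 without a variance trend, 30 with edgeR, 76 with DESeq2 and 0 to 6 when 1 library was left out. The change of Pax5 mRNA lost its call without a filter (0.62, adjusted p 0.054), without a trend (0.62, 0.0815), with the replicate block (0.60, 0.0684) and with all 5 wild-type libraries (0.82, 0.0565). When 1 library was left out it ranged from 0.57 to 0.66. The cause of these shifts was not tested. No paired analysis was possible for the hemizygous comparison and the interaction because their groups share fewer than 2 numbers. Of 112 named calls by adjusted p alone, including the 3 of the interaction, edgeR kept 111 and DESeq2 112. Without wild-type replicate 1 or 2, 70 and 83 were kept, and without a variance trend 87. The replicate block, which was not run for the interaction, kept 65 of 109. The fits without a mutant library kept far fewer. Genes below 1 TPM rest on few reads.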
